A study of Homo sapiens with 118 samples.

Results

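Liver cells clear many drugs without cytochromes P450. The 9 genes described here encode such non-CYP phase I enzymes, namely CES1, CES2, AADAC, PON1, PON3, FMO4, FMO5, EPHX1 and AOX1. A row of the count table was taken as a member when its name, without the trailing probe number, equalled 1 of these symbols. This gave 13 rows of 22068, with 3 rows for CES2, 2 each for FMO5 and AOX1 and 1 for each other gene. All 13 rows had enough counts to be tested for each of the 8 chemicals, so no member was lost.

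Esterases (CES1, CES2, AADAC) cleave ester and amide bonds in drugs and lipids, and paraoxonases (PON1, PON3) hydrolyse lactones and organophosphate products. Flavin-containing monooxygenases (FMO4, FMO5) add oxygen to nitrogen, sulfur or, for FMO5, carbonyl carbon. Microsomal epoxide hydrolase (EPHX1) opens reactive epoxides, and aldehyde oxidase (AOX1) is a cytosolic enzyme that needs a molybdenum cofactor. In liver these genes are expressed mainly by hepatocytes, and their transcription is known to depend on hepatocyte transcription factors.

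Expression was read by TempO-Seq in 118 libraries of HepaRG, an established human liver cell line, which was bought cryopreserved and differentiated and was kept in culture for a week before exposure. Every group was exposed for 72 hours in induction medium, with renewal each day, to 1 of 8 histone deacetylase inhibitors. These were the hydroxamates panobinostat, scriptaid, trichostatin A and vorinostat, the benzamides mocetinostat and tacedinaline, the cyclic peptide apicidin and the fatty acid valproic acid. Each was used at 5 concentrations, C1 (lowest) to C5 (highest). The groups held 3 libraries each, 1 from each of 3 HepaRG batches, except panobinostat C3 and trichostatin A C4, which held 2.

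From C1 to C5 the labelled concentrations ran from 0.041722 to 0.86 µM for apicidin, from 0.177222 to 3.9 µM for mocetinostat and from 0.001468 to 0.084 µM for panobinostat. They ran from 4.94 to 94.5 µM for scriptaid, from 1.143333 to 44 µM for tacedinaline, from 0.018811 to 1.5237 µM for trichostatin A and from 0.404778 to 23.5 µM for vorinostat. The sample labels of valproic acid list 100.478 at C1 and 3038 at C5, the treatment protocol gives far smaller numbers in µM, and the unit is therefore not settled. Because concentrations differ between chemicals, their values are set side by side and were not tested against each other. Solvent controls were not used here. C1 of the same chemical was the reference, so any response that had run its course by C1 stayed out of sight.

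Levels are normalised counts (CPM) relative to TMM-scaled library size. Each row counts 1 probe pair, whose efficiency is its own, so levels of different rows were not ranked against each other. Changes are log2 differences from edgeR's quasi-likelihood fit, ± its standard error (SE), and a row is called lower or higher at an adjusted p under 0.05 with at least a 1.5-fold change. Library totals ran from 1061360 to 5250260 counts. Mean totals were lower at C5 than at C1 in every chemical, most of all in vorinostat (1485590 against 3038900).

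Some libraries stood apart. The ratio of the 2 AOX1 probes, which count the same gene, lay between 2.25 and 3.75 in 111 libraries and between 5.32 and 12.7 in 7. The 7 were mocetinostat C2 replicates 1 and 2, mocetinostat C3 replicate 1, scriptaid C4 replicate 3, apicidin C4 replicate 1, panobinostat C2 replicate 2 and valproic acid C4 replicate 3. No C1 or C5 library is among them. The split by this ratio was chosen after seeing the data. A further library, trichostatin A C1 replicate 3, had a best correlation of 0.871 with the other libraries of its group and is described with that chemical. In bulk lysates, fewer hepatocytes and less of a transcript per hepatocyte cannot be told apart.

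At C5 most members were lower than at C1 in 7 of the 8 chemicals, and no member was called higher at C5 in any. The share of all rows called higher at C5 was 13.6% in apicidin, 14.8% in mocetinostat, 6.69% in panobinostat, 12.6% in scriptaid, 18.8% in tacedinaline, 0.0077% in trichostatin A, 4.84% in valproic acid and 22.6% in vorinostat. Counts of rows called lower are given beside the share of all tested rows called lower in the same comparison. The number was 10 of 13 in apicidin (15% of all rows), 12 in mocetinostat (15.7%), 7 in panobinostat (9.46%) and 11 in scriptaid (16.9%). It was 12 in tacedinaline (20.1%), 10 in valproic acid (6.22%) and 12 in vorinostat (24.8%). In trichostatin A it was 0 (0.0308%), with 0 rows at an unadjusted p under 0.05. The median change of the 13 rows ran from -3.26 in tacedinaline to -0.85 in panobinostat over the 7 chemicals and was 0.01 in trichostatin A. The median of all tested rows lay no further from 0 than 0.08, in mocetinostat. In each of the 74 calls, the C1 and C5 libraries did not overlap and the change was negative in all 3 batches. The calls were made from these same libraries, so this is no separate evidence. The share of all rows without overlap was not counted.

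**Figure D1:**
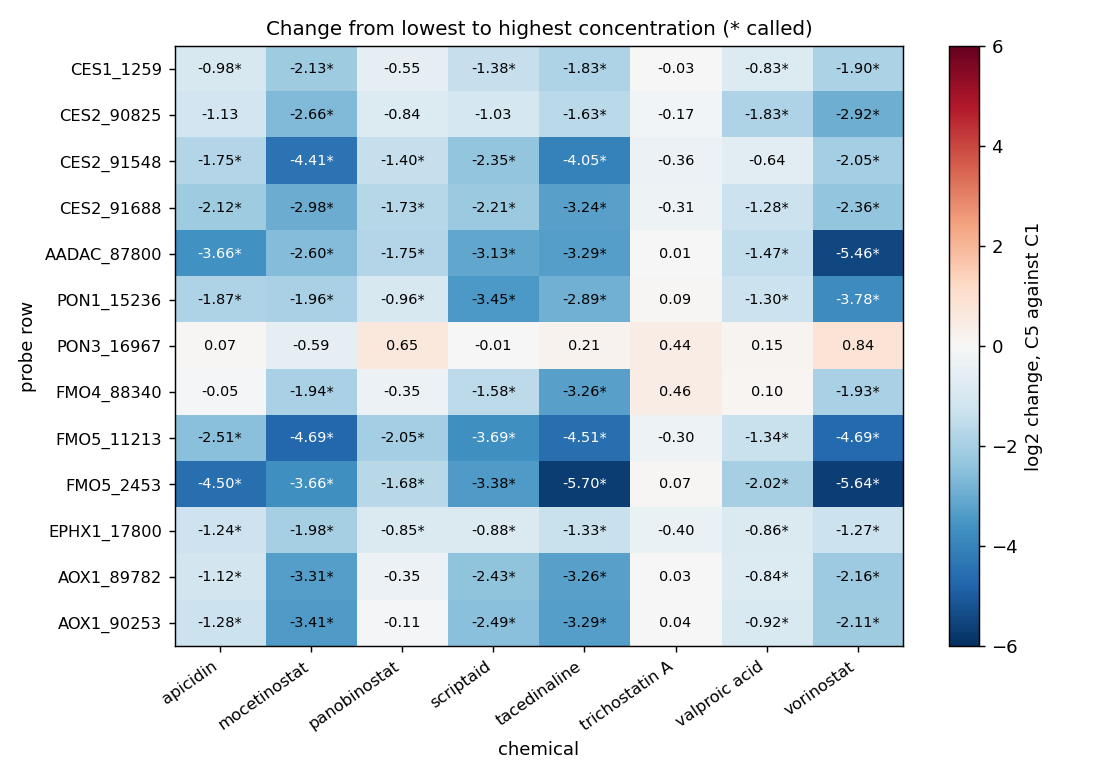
Log2 change from C1 to C5 for the 13 member rows (vertical axis) in 8 chemicals (horizontal axis), from edgeR's fit, with blue for lower and red for higher and an asterisk for a called change. The trichostatin A column and the PON3_16967 row hold no call, and the deepest blue lies in the AADAC and FMO5 rows.

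The fall appeared stepwise with concentration. Over the 8 chemicals, the 104 tests gave 0 members lower at C2 (0.0216% of all rows), 32 at C3 (3.13%), 50 at C4 (8.11%) and 74 at C5 (13.3%). Members called higher numbered 0 at C2 (0.0777% of all rows), 0 at C3 (2.82%), 1 at C4 (7.82%) and 0 at C5 (11.6%). All these comparisons of a chemical share its C1 libraries. In 30 pairs of row and chemical the call held from C3 onwards, in 20 from C4 onwards and in 24 at C5 but not at C4, while 30 pairs had none at C5. CES1_1259 in apicidin and EPHX1_17800 in valproic acid were called lower at C3 and C5 but not at C4. Tacedinaline had 10 rows lower from C3, mocetinostat 8 and apicidin 6. Scriptaid had 1, with 8 of its rows called at C5 alone, and panobinostat had none before C4. Over all rows, 799 of 12461 were called lower at C3 in tacedinaline, 671 of 13065 in mocetinostat and 1061 of 12706 in apicidin. The numbers were 110 of 12790 in scriptaid and 0 of 13104 in panobinostat, so the C3 calls over all rows differed between chemicals too.

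**Figure D2:**
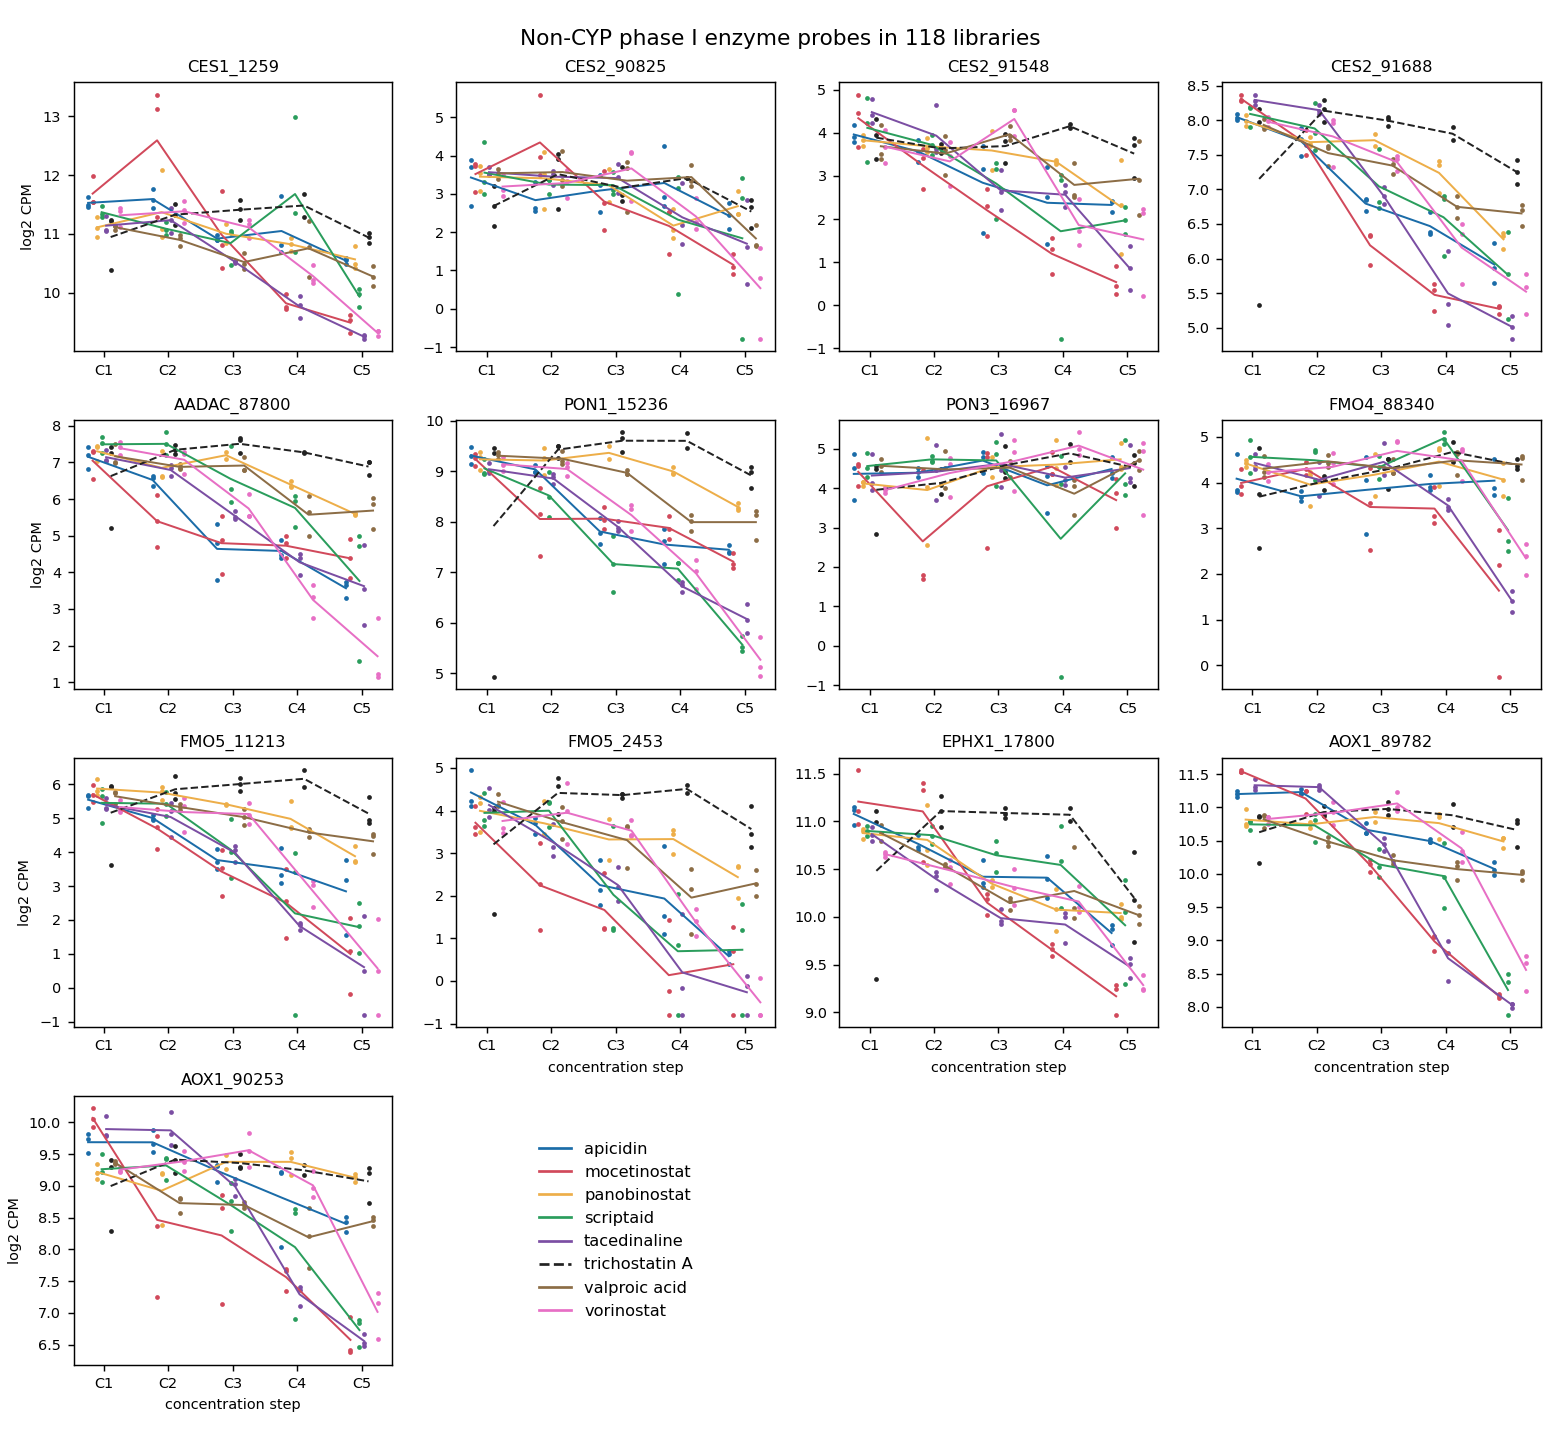
Log2 CPM of the 13 member rows in all 118 libraries against concentration step (C1 to C5), with a point per library and a line through the group means of each chemical, the dashed line being trichostatin A. Most rows fall by C5 in the solid lines, and PON3_16967 shows no such fall. The calls at C3 lie mainly in tacedinaline, mocetinostat and apicidin. Some single points far from their lines belong to the libraries that stood apart, and others do not, such as AADAC_87800 in scriptaid C5 replicate 3.

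Carboxylesterase 1, encoded by CES1 on chromosome 16, is the main hepatic esterase for substrates with small alcohol groups. In tacedinaline its row CES1_1259 read 2151, 2527 and 2119 CPM at C1, 1451, 1488 and 1485 CPM at C3 and 595, 623 and 615 CPM at C5. No C3 library reached the C1 range, and no C5 library reached the C3 range. The C5 change was -1.83 ± 0.12 (edgeR adjusted p = 1.35e-17). Over the 7 chemicals the change ran from -2.13 in mocetinostat to -0.55 in panobinostat. The panobinostat value was not called (edgeR adjusted p = 0.1, 95% interval -1.03 to -0.08), although its C1 and C5 libraries did not overlap. CES1 has a near-identical pseudogene, and reads of the probe may include it.

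CES2, the intestinal and hepatic esterase for substrates with large alcohol groups, had 3 probe rows. CES2_91688 was lower at C5 in all 7 chemicals, with changes from -3.24 in tacedinaline to -1.28 in valproic acid. In mocetinostat it read 312, 312 and 328 CPM at C1 and 39.3, 39.0 and 36.1 CPM at C5. Its call held from C3 onwards in 4 chemicals and from C4 onwards in 3. CES2_91548 was lower in 6 chemicals, from -4.41 in mocetinostat, and valproic acid was the exception (-0.64, edgeR adjusted p = 0.391, 95% interval -1.51 to 0.23). CES2_90825 had C1 group means of 6.13 to 12.2 CPM and was called in 4 chemicals. Its 3 other changes, in apicidin, panobinostat and scriptaid, lay between -1.13 and -0.84.

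Arylacetamide deacetylase, the product of AADAC, is anchored in the endoplasmic reticulum of hepatocytes and hydrolyses drugs and lipids. In vorinostat AADAC_87800 read 170, 187 and 148 CPM at C1, 70.4, 46.2 and 45.7 CPM at C3, 6.17, 12.1 and 9.37 CPM at C4 and 1.64, 6.18 and 1.75 CPM at C5. C1, C3 and C4 fell in order without overlap, and C5 overlapped with C4 by 1 library (6.18 against 6.17 CPM). The C5 change was -5.46 ± 0.33, which is 44.0-fold lower (edgeR adjusted p = 8.98e-17), but the lowest C5 values rest on few counts. In apicidin the row read 148, 170 and 113 CPM at C1 and 12.1, 9.29 and 12.7 CPM at C5, a change of -3.66 ± 0.31 (edgeR adjusted p = 8.03e-09). The smallest of the 7 changes was -1.47 in valproic acid. In scriptaid the 3 C5 libraries were uneven, at 31.4, 25.6 and 2.42 CPM, against 151 to 209 CPM at C1.

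The paraoxonase rows took different courses. PON1 and PON3 are neighbouring genes on chromosome 7, both are made in hepatocytes, and both proteins are carried on high-density lipoprotein. PON1_15236 was lower at C5 in 7 chemicals, from C3 onwards in 5 of them. In tacedinaline it read 570, 511 and 496 CPM at C1, 256, 233 and 224 CPM at C3, 106, 111 and 97.1 CPM at C4 and 65.5, 82.1 and 55.3 CPM at C5. The groups fell in order with no overlap, and the C5 change was -2.89 ± 0.15 (edgeR adjusted p = 2.48e-21). In vorinostat it read 555, 620 and 514 CPM at C1 and 52.4, 34.2 and 30.4 CPM at C5, a change of -3.78 ± 0.19. Panobinostat had the smallest of the 7 changes, -0.96 ± 0.15 (edgeR adjusted p = 5.42e-05).

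PON3_16967 was called lower in none of the comparisons with all libraries. In mocetinostat C2, replicates 1 and 2 stood apart by the AOX1 probe ratio. Once replicate 3 was left out, 1756 of 13235 rows were called lower there, PON3_16967 among them (-2.97, edgeR adjusted p = 0.00972). Its C5 changes in the 8 chemicals lay between -0.59 in mocetinostat and 0.84 in vorinostat. In vorinostat it read 14.9, 14.1 and 15.9 CPM at C1, 28.1, 42.2 and 31.1 CPM at C4 and 30.3, 35.2 and 9.36 CPM at C5. The C4 libraries all exceeded the C1 libraries, and this was the one member called higher at any step (1.23 ± 0.36, edgeR adjusted p = 0.00729, where 15.5% of all rows were called higher in that comparison and 7.82% over the 8 chemicals at C4). The call was lost without replicate 2 (0.96, edgeR adjusted p = 0.167). At C5 replicate 3 lay under the C1 libraries, and the change of 0.84 had an edgeR adjusted p of 0.0624 with a 95% interval of 0.07 to 1.60. At the level of this probe the intervals are wide, such as -0.61 to 0.75 in apicidin and -2.03 to 0.85 in mocetinostat, so moderate changes in either direction were not detectable.

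The log2 ratio of PON1_15236 to PON3_16967 within a library needs no scaling between libraries. Its mean fell from C1 to C5 in 7 chemicals, by between 1.31 in mocetinostat and 4.38 in vorinostat, without overlap between the groups. In vorinostat it was 5.18 at C1 and 0.79 at C5. With 3 libraries against 3, the two-sided exact permutation test gave p = 0.1 in each of the 7, which is the smallest value it can give. In trichostatin A the ratio was 3.95 at C1 and 4.39 at C5 (exact permutation p = 0.9). PON2, the third gene of this cluster, had 2 rows, of which PON2_26571 was lower at C5 in 3 chemicals and PON2_5277 in 1.

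**Figure D3:**
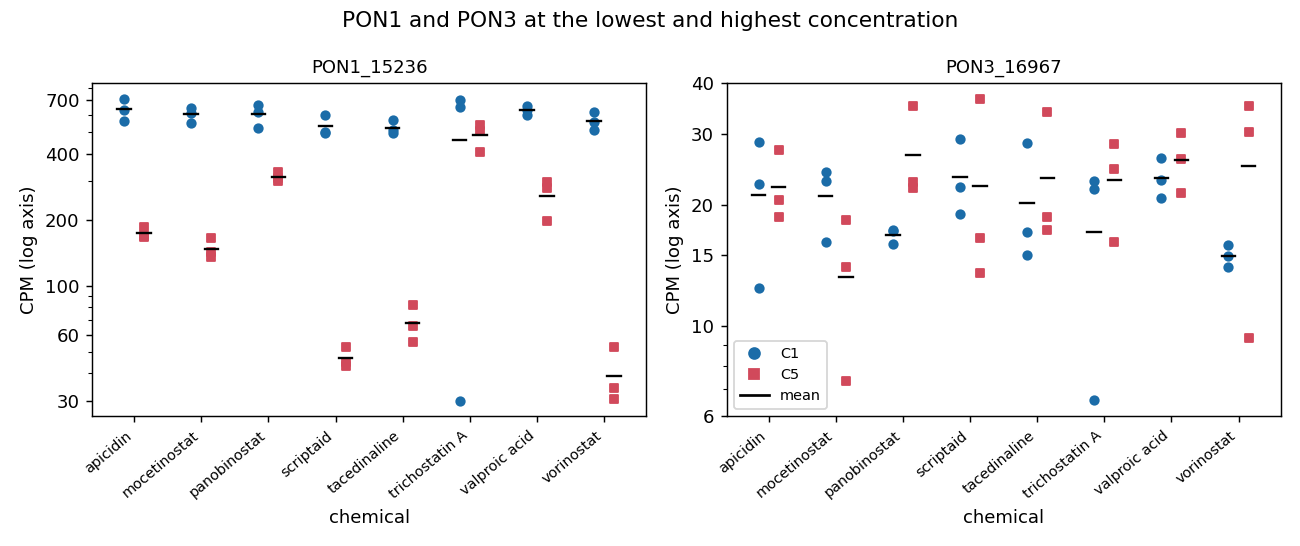
CPM on a log axis for PON1_15236 (left) and PON3_16967 (right) in each library at C1 (circles) and C5 (squares) of the 8 chemicals, with black bars for group means. PON1 separates fully in all chemicals except trichostatin A, whose C1 replicate 3 lies at 29.9 CPM, while C1 and C5 of PON3 overlap in every chemical except panobinostat.

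The upstream sequences of both genes are shown because the measured changes of these neighbours differ. The windows are from RefSeq (GRCh38.p14) and hold 250 bases before to 50 after the annotated start. Capitals mark GC boxes, GGGCGG on either strand, of which PON1 holds 2 that share letters and PON3 holds 3. PON1 lies on the minus strand at chr7:95324483-95324782 and PON3 on the minus strand at chr7:95396326-95396625.
PON1: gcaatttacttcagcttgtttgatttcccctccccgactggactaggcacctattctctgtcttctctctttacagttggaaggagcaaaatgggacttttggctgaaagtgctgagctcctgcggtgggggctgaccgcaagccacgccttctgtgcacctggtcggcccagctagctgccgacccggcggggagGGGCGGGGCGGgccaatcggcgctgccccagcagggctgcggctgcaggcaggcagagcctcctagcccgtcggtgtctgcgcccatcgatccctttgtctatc
PON3: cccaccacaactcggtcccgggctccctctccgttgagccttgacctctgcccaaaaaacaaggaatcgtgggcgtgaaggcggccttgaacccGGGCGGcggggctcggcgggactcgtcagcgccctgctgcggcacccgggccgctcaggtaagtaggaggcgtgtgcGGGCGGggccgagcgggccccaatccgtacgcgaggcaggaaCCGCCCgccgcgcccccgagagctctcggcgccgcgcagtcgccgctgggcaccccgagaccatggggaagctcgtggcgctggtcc

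The GC content was 62% in the PON1 window and 72.7% in the PON3 window, against a median of 58.7% over all windows. A GC box was found in 7 of 11 member windows, which belong to 8 of the 9 genes, and in 45% of the 35116 windows of all genes. The other motifs were searched on both strands. The HNF1 half-site GTTAAT (6.88% of all windows) and the TATA box TATAAA (11.5%) each matched 1 member window, that of FMO5. The antioxidant response core TGACNNNGC (13.3%) matched 1 of the 3 EPHX1 windows. The HNF4 site CAAAGTCCA (0.384%), the DR1 site CAAAGGTCA (0.407%) and the C/EBP site TTGCNNAA (10.5%) matched none. These are matches of letters in 300 bases, not measured binding.

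FMO5 is the flavin monooxygenase with Baeyer-Villiger activity and is abundant in human liver. Both of its rows were lower at C5 in 7 chemicals. FMO5_11213 changed by -4.69 in mocetinostat, -4.69 in vorinostat and -4.51 in tacedinaline, and by -1.34 ± 0.23 in valproic acid, its smallest change. In vorinostat it read 36.0, 46.2 and 37.3 CPM at C1 and 0.82, 0.00 and 3.51 CPM at C5. The groups did not overlap, but the C5 values rest on few counts. FMO5_2453 held 136 counts over the 3 C1 libraries of tacedinaline and 2 over the 3 C5 libraries, a ratio of 57.5 with an exact 95% counting interval of 15.6 to 480. In vorinostat it held 111 counts at C1 and 1 at C5, a ratio of 62.1 with an interval of 10.9 to 2474. These intervals cover counting error only. In panobinostat both rows were readable at C5. FMO5_11213 then read 12.6, 12.7 and 17.6 CPM against 50.5, 70.4 and 54.9 CPM at C1 (-2.05 ± 0.26, edgeR adjusted p = 4.11e-06).

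The FMO5 window is printed because it was the member window with an HNF1 half-site and a TATA box. Capitals mark, in order, the half-site (as ATTAAC), a GC box and the TATA box (as TTTATA). It lies on the minus strand at chr1:147225290-147225589.
FMO5: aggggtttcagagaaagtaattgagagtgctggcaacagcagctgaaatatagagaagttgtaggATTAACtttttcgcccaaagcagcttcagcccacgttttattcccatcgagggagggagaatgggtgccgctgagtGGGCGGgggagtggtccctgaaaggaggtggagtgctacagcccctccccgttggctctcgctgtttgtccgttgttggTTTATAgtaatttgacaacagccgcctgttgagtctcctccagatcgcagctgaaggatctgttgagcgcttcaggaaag

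FMO4, a low-abundance family member, followed another course. FMO4_88340 was called at C5 in 4 chemicals and, before C5, in tacedinaline C4 alone. In tacedinaline it read 24.2, 19.2 and 19.9 CPM at C1, 28.5, 19.5 and 17.4 CPM at C3, 9.92, 10.4 and 11.9 CPM at C4 and 2.50, 2.07 and 1.65 CPM at C5. C1 and C3 overlapped, and C4 and C5 lay below both. The C5 change was -3.26 ± 0.46 (edgeR adjusted p = 8.90e-08). In scriptaid it read 28.3, 33.7 and 30.3 CPM at C4 and 5.10, 5.96 and 12.1 CPM at C5, so the fall lay within 1 step. In vorinostat the C5 change was -1.93 ± 0.41. In mocetinostat it was -1.94 ± 0.65 (edgeR adjusted p = 0.0313), a call lost without any 1 of the 3 replicates. No change was called in apicidin (-0.05, 95% interval -0.84 to 0.73), panobinostat (-0.35, -1.03 to 0.34) or valproic acid (0.10, -0.45 to 0.65).

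EPHX1_17800 fell in all 7 chemicals with the narrowest range of changes among rows called in all 7, from -1.98 in mocetinostat to -0.85 in panobinostat. In tacedinaline it read 1775, 1860 and 1971 CPM at C1, 1418, 1383 and 1246 CPM at C2, 1084, 993 and 971 CPM at C3 and 730, 758 and 657 CPM at C5. The C2 libraries already lay below all C1 libraries, and that change of -0.47 had an edgeR adjusted p of 0.0328, but its size missed the 1.5-fold minimum. The C5 change was -1.33 ± 0.11 (edgeR adjusted p = 1.33e-13). In scriptaid the C5 libraries read 1340, 1059 and 631 CPM against 1838 to 1985 CPM at C1 (-0.88 ± 0.29, edgeR adjusted p = 0.0282).

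AOX1 was lower at C5 in 6 chemicals by both of its rows, with panobinostat the exception among the 7. AOX1_89782 in mocetinostat read 2960, 2975 and 3018 CPM at C1, 1914, 2431 and 2433 CPM at C2, 1046, 1139 and 1184 CPM at C3, 533, 528 and 459 CPM at C4 and 285, 291 and 280 CPM at C5. By this row every step lay below the one before it without overlap. AOX1_90253 read 151, 329 and 882 CPM at C2, 141, 462 and 404 CPM at C3 and 201, 207 and 161 CPM at C4, so these steps overlapped. Replicates 1 and 2 of C2 and replicate 1 of C3 are among the libraries with a high AOX1 probe ratio. The C5 change of AOX1_89782 was -3.31 ± 0.16, or 9.95-fold lower (edgeR adjusted p = 4.24e-10), and AOX1_90253 gave -3.41 ± 0.54. The 2 probes gave like C5 changes in other chemicals too, such as -3.26 and -3.29 in tacedinaline and -0.84 and -0.92 in valproic acid.

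In panobinostat AOX1_89782 read 1727, 2006 and 1691 CPM at C1 and 1480, 1493 and 1336 CPM at C5. These groups did not overlap, but the change of -0.35 ± 0.14 was not called (edgeR adjusted p = 0.0796, 95% interval -0.62 to -0.07). AOX1_90253 changed by -0.11 (95% interval -0.46 to 0.25). In the same libraries AADAC_87800 and CES2_91688 changed by -1.75 and -1.73. The difference between members within panobinostat was not tested.

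**Figure D4:**
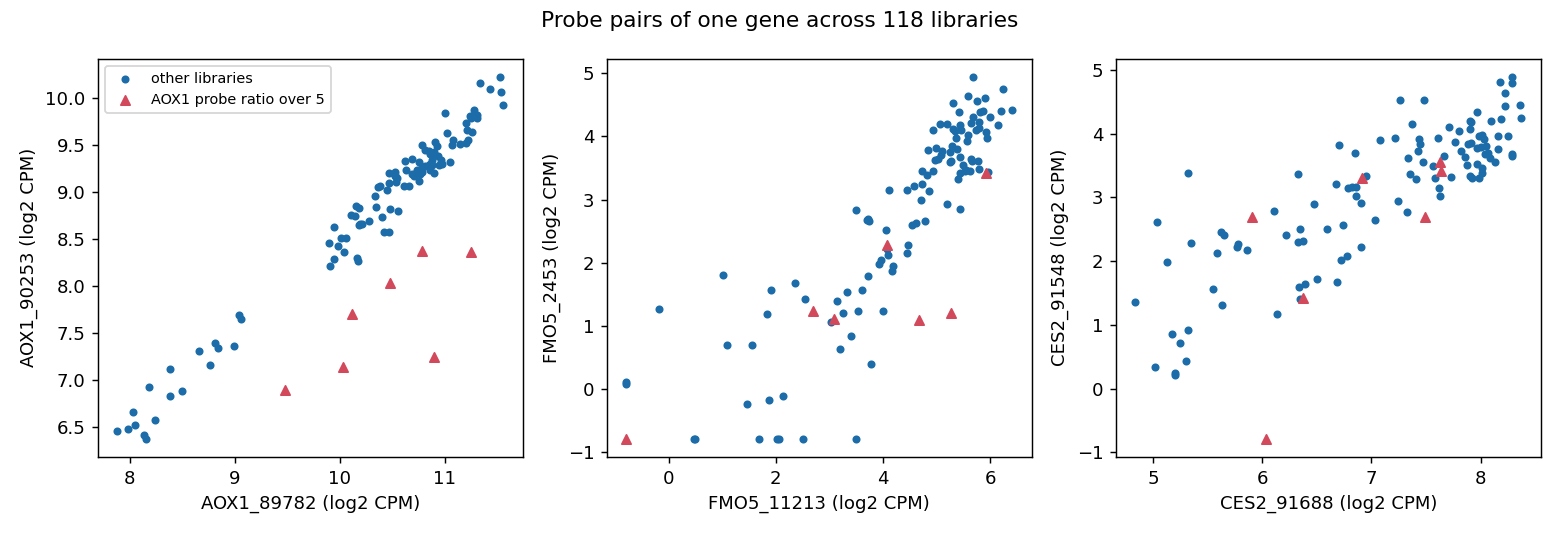
Log2 CPM of 2 probes of the same gene plotted against each other in 118 libraries, for AOX1 (left), FMO5 (centre) and CES2 (right), with triangles for the 7 libraries whose AOX1 probe ratio is over 5. The AOX1 triangles lie below the band of the other 111 libraries, and the FMO5 and CES2 probes scatter more where counts are low.

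The 7 libraries with a high AOX1 probe ratio moved other members as well. In mocetinostat C2, CES1_1259 read 10571 and 8906 CPM in replicates 1 and 2 and 2490 CPM in replicate 3, against 2968, 2969 and 4054 CPM at C1. PON3_16967 read 2.68 and 2.88 CPM in replicates 1 and 2 and 21.5 CPM in replicate 3. In scriptaid C4 replicate 3, CES1_1259 read 8090 CPM and PON3_16967 had 0 counts. Without the 7 libraries 1 member was called lower at C2, AOX1_90253 in valproic acid (-0.64, edgeR adjusted p = 0.0146). Over all rows, 9 of 13354 were called lower in that comparison. A fit that instead dropped mocetinostat C2 replicate 3, among the 6 libraries whose best correlation within the group was under 0.90, gave 5 lower, PON3_16967 among them, and 2 higher at C2. The member calls of this second fit all lay in mocetinostat, where 2707 of all 13543 rows were called lower at C2 and 1958 higher. What sets these libraries apart was not tested.

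Trichostatin A was the chemical without calls, and this rests in part on 1 library. In C1 replicate 3, PON1_15236 read 29.9 CPM against 702 and 652 CPM in replicates 1 and 2. AADAC_87800 read 36.2 CPM against 171 and 152 CPM, and EPHX1_17800 read 651 CPM against 2208 and 2038 CPM. All 3 rows were far below their partners, and the summed level of 8 hepatocyte markers in C1 likewise ran from 13937 to 57446 CPM. Without this library 2 members were called lower at C5 (0.691% of all rows). These were EPHX1_17800 (-0.79 ± 0.17, edgeR adjusted p = 0.0182) and CES2_91688 (-0.80 ± 0.16, edgeR adjusted p = 0.00868). Without the whole of replicate 3, FMO5_11213 was called too (-1.03 ± 0.26, edgeR adjusted p = 0.0430), which makes 3 members (1.41% of all rows).

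Within trichostatin A, the C5 libraries can also be set beside those of C2 and, for EPHX1_17800, C4. EPHX1_17800 read 2472, 2213 and 1969 CPM at C2, 2257 and 2048 CPM at C4, and 856, 1157 and 1639 CPM at C5. CES2_91688 read 313, 285 and 250 CPM at C2 and 151, 135 and 171 CPM at C5. For both rows the C5 libraries lay below all C2 libraries. The same held for CES1_1259, AADAC_87800 and AOX1_89782, which were not called. AADAC_87800, for instance, read 176, 161 and 150 CPM at C2 and 128, 99.6 and 128 CPM at C5. EPHX1_17800 and CES2_91688 are the 2 rows called lower without C1 replicate 3. Such separation was not counted over all rows and is not particular to them. PON1_15236 read 506, 406 and 543 CPM at C5, which is below replicates 1 and 2 of C1.

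Summed markers of hepatocytes and of dividing cells fell at C5 in the same 7 chemicals as most members. The sums of the other cell types did not follow the members in every chemical. The labels name liver progenitor cells as the cell type, while all 8 hepatocyte markers were present at C1, with albumin (ALB) at a mean of 23199 CPM. Of these, 6 to 8 of the 8 were called lower at C5 in each of the 7 chemicals and 0 in trichostatin A. Their summed level changed by -0.86 in panobinostat, the smallest of the 7, and by -3.60 in tacedinaline, the largest, on the log2 scale and without overlap. In trichostatin A the hepatocyte sums ran from 13937 to 57446 CPM at C1 and from 37540 to 49054 CPM at C5. The lowest C1 library pulled that C1 mean down, so the lack of a fall there rests in part on 1 library. Biliary epithelial markers had summed C1 means of 71.2 to 124 CPM, and their sum was higher at C5 without overlap in 4 chemicals. Over the C1 libraries KRT19_10816 had a mean of 39.3 CPM, SOX9 22.5 CPM, KRT19_3690 11.7 CPM and SPP1 9.73 CPM, while EPCAM was at 0. The sum of mesenchymal markers was 162 to 229 CPM at C1 and was lower at C5 without overlap in 6 chemicals, trichostatin A included. Of 4 markers of dividing cells, 1 to 4 were called lower in the 7 chemicals, and their sum changed by -0.76 to -3.57. The blood and endothelial sum was 32.0 to 84.0 CPM at C1 and was lower at C5 without overlap in tacedinaline (-1.41), valproic acid (-1.10) and vorinostat (-0.52). PTPRC and CD3E, which mark blood cells, were at 0 at C1. CD68_20756, of the same list, had a mean of 47.1 CPM over the C1 libraries and made up most of the sum. PECAM1_14079 had a mean of 2.80 CPM. The part of cell composition and of depth in the fall of the members was not tested.

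Other non-CYP phase I enzymes were followed in a list of 37 genes with 46 rows, of which 36 to 39 were tested. At C5 the number lower and higher was 9 and 3 in apicidin, 23 and 3 in mocetinostat, 4 and 3 in panobinostat, 14 and 2 in scriptaid, 24 and 4 in tacedinaline, 5 and 1 in valproic acid and 16 and 4 in vorinostat. In trichostatin A both were 0. Over all chemicals that makes 95 lower and 20 higher in 306 tests, where 13.3% of all rows were called lower and 11.6% higher. Butyrylcholinesterase (BCHE) and both rows of dihydropyrimidinase (DPYS) were lower in 7 chemicals and soluble epoxide hydrolase (EPHX2) in 6. The aldo-keto reductase AKR1B1 and carbonyl reductase CBR1 were higher in 4 each. These genes, PON2 above and NFE2L2 below were picked after their values were seen.

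The row of that list with the largest called change differed between chemicals. DPYS_89710 changed by -3.37 in apicidin and -4.32 in scriptaid, and the retinol dehydrogenase DHRS9 rose by 1.85 in panobinostat and 4.00 in valproic acid. In mocetinostat NQO1_4668 had 53 counts at C1 and 0 at C5, which is at least 16.3-fold lower when 3 counts are set for the C5 group. In tacedinaline xanthine dehydrogenase (XDH), a molybdoenzyme like AOX1, had 64 counts at C1 and 0 at C5, at least 18.0-fold lower by the same bound. In vorinostat XDH had 85 counts at C1 and 1 at C5, a ratio of 47.5 (exact 95% counting interval 8.30 to 1899).

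AOX1 belongs to the molybdoenzymes. Of 9 rows on molybdenum cofactor synthesis and other molybdoenzymes, 16 of 69 tests over the 8 chemicals were called lower at C5 and 6 higher, beside the same 13.3% and 11.6% of all rows. MOCOS, the sulfurase that activates the cofactor of AOX1 and XDH, was lower in 7 chemicals, and XDH in 4. In panobinostat, where AOX1 was not called, MOCOS changed by -2.15 (21.0 to 4.77 CPM, edgeR adjusted p = 0.00163).

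Among transcription factors known to regulate these genes, 52 of 100 tests were called lower at C5 (13.3% of all rows) and 5 higher (11.6%). NR1I2 (the pregnane X receptor) by row NR1I2_4673 and NR1I3 (the constitutive androstane receptor) by row NR1I3_90298 were lower in 7 chemicals. HNF4A, which sustains hepatocyte gene expression, was lower in 6, as were the rows NR1I2_12051 and NR1I3_87852. PPARA_17989 and RXRA were lower in 5, and the 5 calls higher were all of AHR, the dioxin receptor. In vorinostat NR1I3_90298 had 388 counts at C1 and 0 at C5, at least 72.3-fold lower. NFE2L2 was called in no chemical.

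Across the 40 group means of log2 CPM, the 66 pairs of member rows other than PON3_16967 had Pearson correlations of 0.59 to 0.97, and the 12 pairs with PON3_16967 of -0.35 to 0.25. These points share chemicals, batches and the libraries that stood apart, so the values are descriptive. By the same measure, the most alike row was ALDH4A1 for CES1 (0.953), C4B for CES2_91688 (0.977), CENPV for AADAC (0.967) and CAT for PON1 (0.963). For AOX1_89782 it was PIPOX (0.955). The best values were lower for PON3, with CTBS at 0.871, and for FMO4, with ST5 at 0.886.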

How the data were processed

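TempO-Seq hybridises probe pairs to transcripts in lysates, ligates them and sequences the products. The authors deposited raw counts per probe, whole numbers without normalisation. The submitters' processing notes name bcl2fastq 2.20.422, fastp 0.23.2, STAR 2.7.10b and DESeq2 1.38.0. The genome build is not given in the sources used here. The paper provided describes another experiment, and nothing of it was used. Of 22069 rows, 1 lacked values in 88 libraries and was left out.

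Each chemical was fitted separately with edgeR 4.0.16 in R 4.3.3 (filterByExpr, TMM, robust quasi-likelihood F test, group as the only term), C2 to C5 against C1, with Benjamini-Hochberg adjustment over all rows tested. Plate H held 5 chemicals and plate E held 3. Log2 CPM used a prior count of 2. The scripts were tested on simulated data. Replicate numbers mark HepaRG batches in the labels and so pair libraries. As a check, the residuals of 2 libraries correlated with a median of 0.0439 over 232 pairs from the same batch and -0.0198 over 464 pairs from different batches. Alternatives were RLE factors, library totals, no filter, DESeq2 1.42.0, the batch block, adjusted p alone and leaving out replicates or libraries. The leave-outs of single libraries were chosen after seeing the data. The members, lists and tests were chosen with earlier results of these data known. Named rows were the members, the most changed list row per chemical, rows of the cofactor and regulator lists called in at least 4 chemicals, and the most alike rows, which for FMO5 and EPHX1 are not reported here.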

Additional observations from a re-analysis of the deposited data

How the results depend on the processing

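None of the 74 calls at C5 reversed under the alternatives run. All held with RLE size factors, without the filter and with DESeq2, and 73 held with library totals only (EPHX1_17800 in scriptaid was lost, at -0.73). With the replicate block, which uses the batch pairing, all 74 held, and no count of members called moved by over 1.5 times. Leaving out replicate 1, 2 or 3 lost 11, 10 and 5, and 58 calls held under every setting. With library totals the median of all rows at C5 was up to 0.27 (mocetinostat), so changes are relative to it.

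Leaving out replicate 1, 2 or 3, or trichostatin A C1 replicate 3 alone, gave 6 to 11 members lower at C5 in scriptaid, 0 to 3 in trichostatin A, 0 to 1 higher in vorinostat, 0 to 4 lower and 0 to 1 higher at C2, 18 to 32 lower and 0 to 1 higher at C3 and 0 to 1 higher at C4. The counts over all rows moved too. At C5 in scriptaid, 1269 of 12927, 1027 of 12326 and 2574 of 12871 rows were called lower without replicate 1, 2 and 3. At C3 in tacedinaline these were 550 of 13144, 540 of 12299 and 680 of 12413, against 799 of 12461 with all libraries. In trichostatin A, leaving out C1 replicate 3, or the 6 libraries under a correlation of 0.90, gave 2 lower at C5, and the uncalled change of PON1_15236 went from 0.09 to -0.47. With library totals 1 member (PON3_16967) was higher at C5 in vorinostat. At C2 the count of lower members was 1 without the filter, 3 with DESeq2, 1 with adjusted p alone, 5 (and 2 higher) without the 6 libraries and 1 without those with a high AOX1 probe ratio. The calls without the filter, with DESeq2 and without the 6 libraries lay in mocetinostat. Over all rows there, 25 of 19732, 112 of 13065 and 2707 of 13543 were called lower, and 67, 335 and 1958 higher. The call with adjusted p alone lay in tacedinaline (12 of 12461 rows lower). The call without the high AOX1 probe ratios lay in valproic acid (9 of 13354 rows lower). At C3, 1 member was higher without the filter. The cause was not tested. Depth limits CES2_90825, CES2_91548, FMO4 and both FMO5 rows, which lie at a few counts in some C5 groups. It also limits AADAC_87800 in vorinostat C5, at 1.64 and 1.75 CPM in replicates 1 and 3.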
